A study of Arabidopsis thaliana with 6 samples.

Results

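The NAC transcription factor genes described here are the 83 nuclear protein-coding genes, of 27444 in the RefSeq gene table, whose symbol is NAC or ANAC followed by a number, together with ATAF1 and ATAF2. CUC1, CUC2 and CUC3 are not among them, and NAC genes listed under another symbol are counted apart as relatives. Binding of SWN-GFP was mapped by chromatin immunoprecipitation with a GFP antibody and sequencing in whole Arabidopsis seedlings at 14 days. All plants lacked the endogenous SWN gene (swn) and carried SWN-GFP driven by the SWN promoter. The 2 SWN-GFP val1 val2 libraries came from plants that were also mutant for VAL1 and VAL2, and the 2 SWN-GFP libraries from plants with both genes intact. A further 2 input libraries, 1 per genotype, were not analysed here. Whole seedlings mix many cell types, so fewer cells of a type with SWN-GFP on a gene and less SWN-GFP per cell cannot be told apart. The labels do not say whether replicates were grown separately, and their spread may be technical only. Each genotype had its own input, so genotype and input cannot be told apart.

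SWN (SWINGER) is a histone methyltransferase subunit of Polycomb repressive complex 2, which places methyl groups on lysine 27 of histone H3 and keeps developmental genes silent. VAL1 and VAL2 are B3-domain repressors that bind RY elements in DNA and are known to bring Polycomb proteins to seed and flowering genes. NAC proteins are a large plant-specific family that shares an N-terminal DNA-binding domain. Members switch on xylem and fibre walls, shape the root cap and phloem, drive leaf senescence and answer drought, wounding and pathogens, and many act in few cell types or only under stress. The comparison asks where SWN sits on these genes with and without VAL1 and VAL2.

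The libraries gave 9177 and 9618 peaks in SWN-GFP val1 val2 and 8189 and 8666 in SWN-GFP. Peaks had been called separately in each library. Sequencing depth is unknown, and the lowest local background worked out from the peaks, 8.79 and 10.1 fragments in SWN-GFP val1 val2 against 7.53 and 8.6 in SWN-GFP, ranked the lists as their peak numbers did. A gene without a peak is thus one below the threshold of the caller in that library, which does not show that SWN-GFP was absent from it. Fold enrichments given here are the authors' own value for a peak within its list, and percentiles rank a peak by fold within its own list. The median fold of a peak was 2.94 and 2.83 in SWN-GFP val1 val2, against 3.12 and 2.99 in SWN-GFP. A fold threshold thus need not cut the lists alike. With 2 libraries against 2, the smallest exact two-sided permutation p is 0.333, which no difference of a single gene can pass at the usual threshold, and no other test of covered lengths was made. Differences are given with the SD of 2 libraries and by whether the libraries of the genotypes overlap.

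SWN-GFP lay on NAC genes more often than on protein-coding genes at large, in both genotypes. A gene counted as occupied where a peak overlapped its span by 1 bp or more. In SWN-GFP val1 val2, with a peak in each of the 2 lists, 38 of the 83 NAC genes (45.8%) were occupied, where 17.9% of all nuclear protein-coding genes were. In SWN-GFP, by the same count, 33 NAC genes (39.8%) were occupied, where 16.9% of all genes were. Single libraries gave 41 and 41 occupied NAC genes in SWN-GFP val1 val2 and 35 and 38 in SWN-GFP. The median span was 1909 bp for NAC genes and 2078 bp for all protein-coding genes, and the part of span length in these shares was not tested.

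Most occupied NAC genes carried SWN-GFP in every library, and few passed from occupied to unoccupied between genotypes. A gene is called kept when all 4 lists had a peak, gained when SWN-GFP val1 val2 had one in each library and SWN-GFP in none, lost when the peaks were in SWN-GFP instead, and mixed in all other cases. Of the 45 NAC genes with a peak in any list (54.2% of the 83, where 29.0% of all genes had one), 30 were kept, 1 was lost, 2 were gained and 12 were mixed. The kept genes were 66.7% of the 45, against 43.6% of all genes with a peak in any list, and the mixed ones 26.7%, against 34.7%. The lost gene was 3.03% of the 33 occupied in both SWN-GFP lists, where 16.0% of all such genes were lost. The gained genes were 5.26% of the 38 occupied in both SWN-GFP val1 val2 lists, where 20.2% of all such genes were gained. The strongest peak of a kept NAC gene also ranked somewhat higher than that of all kept genes, and the part of this in the shares was not tested. Kept NAC genes more often held several peaks and had longer spans (median 2020.5 bp, against 1756 bp for all kept genes). The part of peak number and span in this rank was not tested. The strongest peak of a kept NAC gene had a median percentile of 81.6 and 82.2 in SWN-GFP val1 val2 and of 83.2 and 83.8 in SWN-GFP, against 76.9 and 78.0 in SWN-GFP val1 val2 and 73.9 and 75.5 in SWN-GFP for all kept genes.

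**Figure D1:**
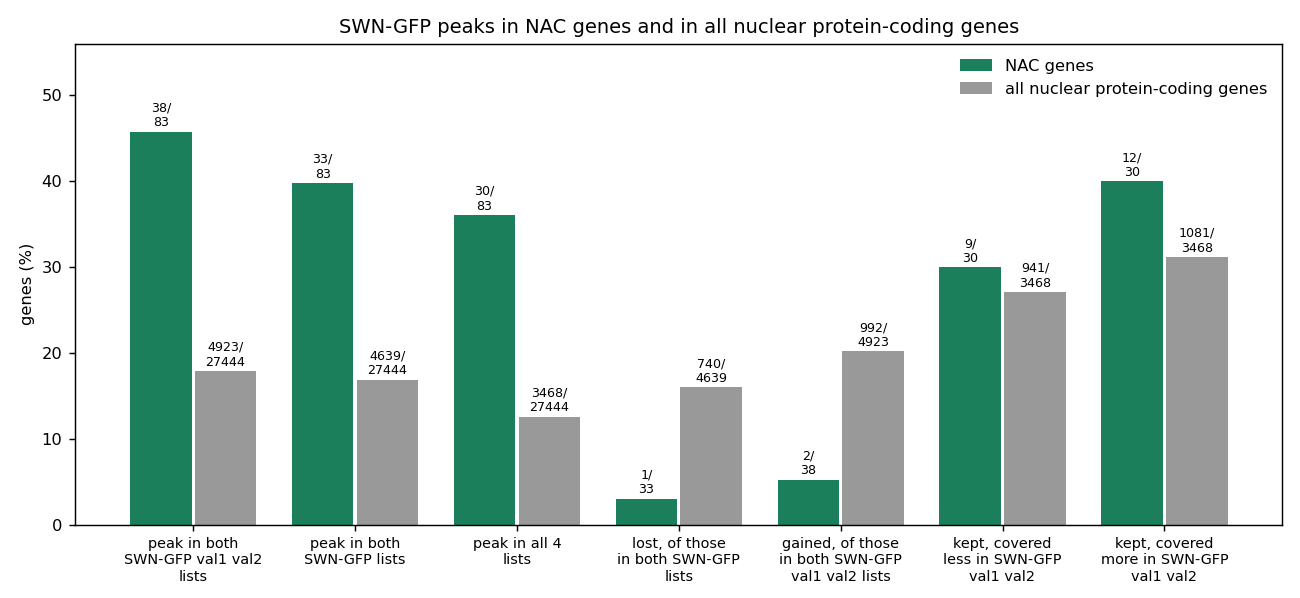
Share of NAC genes (green, left bar of each pair) and of all nuclear protein-coding genes (grey) in each class, in percent, with the number of genes above each bar. NAC genes were occupied more often than all genes (45.8% against 17.9% in SWN-GFP val1 val2) and were lost or gained in smaller shares (3.03% against 16.0%, and 5.26% against 20.2%).

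The lost gene was ANAC056 (AT3G15510), also called NARS1 and listed in the gene table as NAC2, which acts with NAM in the development of the seed coat and embryo. Its span of 2079 bp was free of peaks in both libraries of SWN-GFP val1 val2, while peaks covered 1641 and 1758 bp of it in the SWN-GFP lists. These peaks lay on chromosome 3 at 5243487 to 5245127 and 5243477 to 5245234 (TAIR10), with a fold of 4.51 and 5.56, at percentiles 77.5 and 87.3 of their lists. ANAC056 was also lost under each alternative threshold, window and left-out library that was tried.

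The nearest protein-coding gene on one side behaved otherwise. ANAC055 (AT3G15500), a factor of abscisic acid and jasmonate responses listed as NAC3, had its whole span of 1740 bp under 1 peak in all 4 lists. The fold was 7.73 and 7.8 in SWN-GFP val1 val2, against 9.4 and 11.37 in SWN-GFP, and the peak ranked between percentiles 95.5 and 98.2 in every list. NAC019, its close relative with a similar role, was covered over 1560 and 1560 bp in SWN-GFP val1 val2, its whole span, against 1496 and 1505 bp in SWN-GFP. The fold of its peak was 6.1 and 5.81 in SWN-GFP val1 val2 (percentiles 91.5 and 91.3), against 7.72 and 7.78 in SWN-GFP (percentiles 93.6 and 94.4). A relative of ANAC056 outside the symbol rule, NAM, lies beside NAC019. In SWN-GFP val1 val2, NAM had no peak in replicate 1 and 475 bp under a peak in replicate 2, against 514 and 733 bp in SWN-GFP. In both gene pairs the stress gene was covered over its whole span in SWN-GFP val1 val2, by a peak at a lower percentile than in SWN-GFP. The seed gene of each pair was covered less far in SWN-GFP val1 val2 than in SWN-GFP. These are 2 pairs of genes only. Covered length cannot show a further rise where a peak spans a whole gene, nor a lower signal within it.

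**Figure D2:**
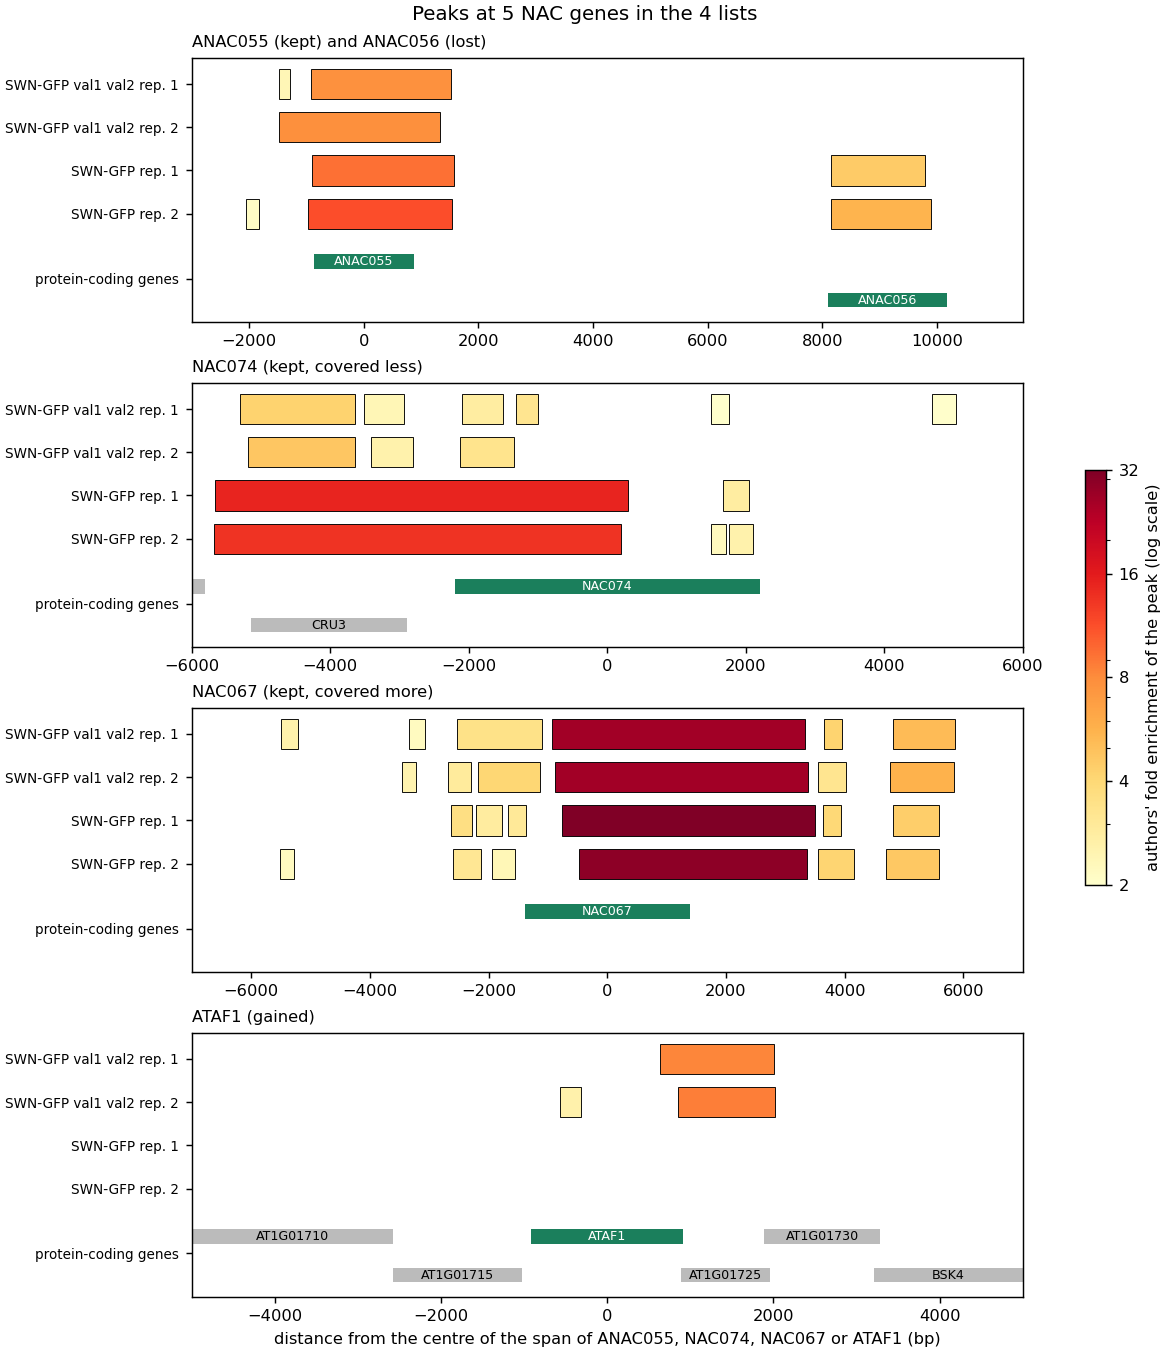
Peaks of the 4 lists (boxes, shaded by the authors' fold on a log scale) at 5 NAC genes, with SWN-GFP val1 val2 rows above SWN-GFP rows and protein-coding gene spans below, along the distance in bp from the centre of the named span. ANAC056 had peaks in the SWN-GFP rows only, the NAC074 peak of 5960 and 5871 bp in SWN-GFP stood against short peaks in SWN-GFP val1 val2, NAC067 had a strong peak in every row, and the ATAF1 peaks lay mostly over its neighbour.

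The gained genes were ATAF1 and NAC083. ATAF1 (AT1G01720), a factor induced by drought, wounding and abscisic acid, had 278 and 309 bp of its span of 1827 bp under peaks in SWN-GFP val1 val2 and none in SWN-GFP. The strongest of these peaks were near the top of their lists, with a fold of 8.3 and 8.65 at percentiles 96.3 and 97.1. They lay on chromosome 1 at 269542 to 270910 and 269763 to 270925, with the summit 913 and 912 bp outside the ATAF1 span. They covered the whole span of the neighbouring gene AT1G01725, 1068 bp in both lists, which had no peak in SWN-GFP, and reached ATAF1 by 278 and 57 bp only. The call for ATAF1 thus rests on the edge of a peak centred on its neighbour and, in replicate 2, on a further peak of 252 bp with a fold of 2.6. NAC083 (AT5G13180), or VNI2, which restrains the vessel factor VND7 and leaf ageing, had 476 and 299 bp under peaks in SWN-GFP val1 val2 and none in SWN-GFP. These peaks were weak, with a fold of 2.72 and 2.36 at percentiles 39.6 and 20.5, and with only peaks of a −log10 q of at least 5 the gene was no longer gained.

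Beneath the stable occupancy, the extent of SWN-GFP on kept genes differed between genotypes in both directions. Of the 30 kept NAC genes, 12 (40.0%) were covered further in each library of SWN-GFP val1 val2 than in any of SWN-GFP, where 31.2% of all kept genes were. Another 9 (30.0%) were covered less, where 27.1% of all kept genes were, and in the other 9 the genotypes overlapped. The median difference in covered length over the 30 genes was 2.0%, with a range from -66.8% to 227.2%, and over all kept genes it was 1.1%. Both shares were near those of all genes. Summed over all 83 NAC genes, 44.3 ± 1.0 kb lay under peaks in SWN-GFP val1 val2 and 41.3 ± 1.6 kb in SWN-GFP (SD, n = 2 each), a difference of 7.29% where that over all protein-coding genes was 2.51%. The sign of this sum turned with the threshold: with only peaks of a fold of at least 4 the difference was -12.51%. That setting was run for the NAC genes only, so the value over all protein-coding genes is not known here.

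**Figure D3:**
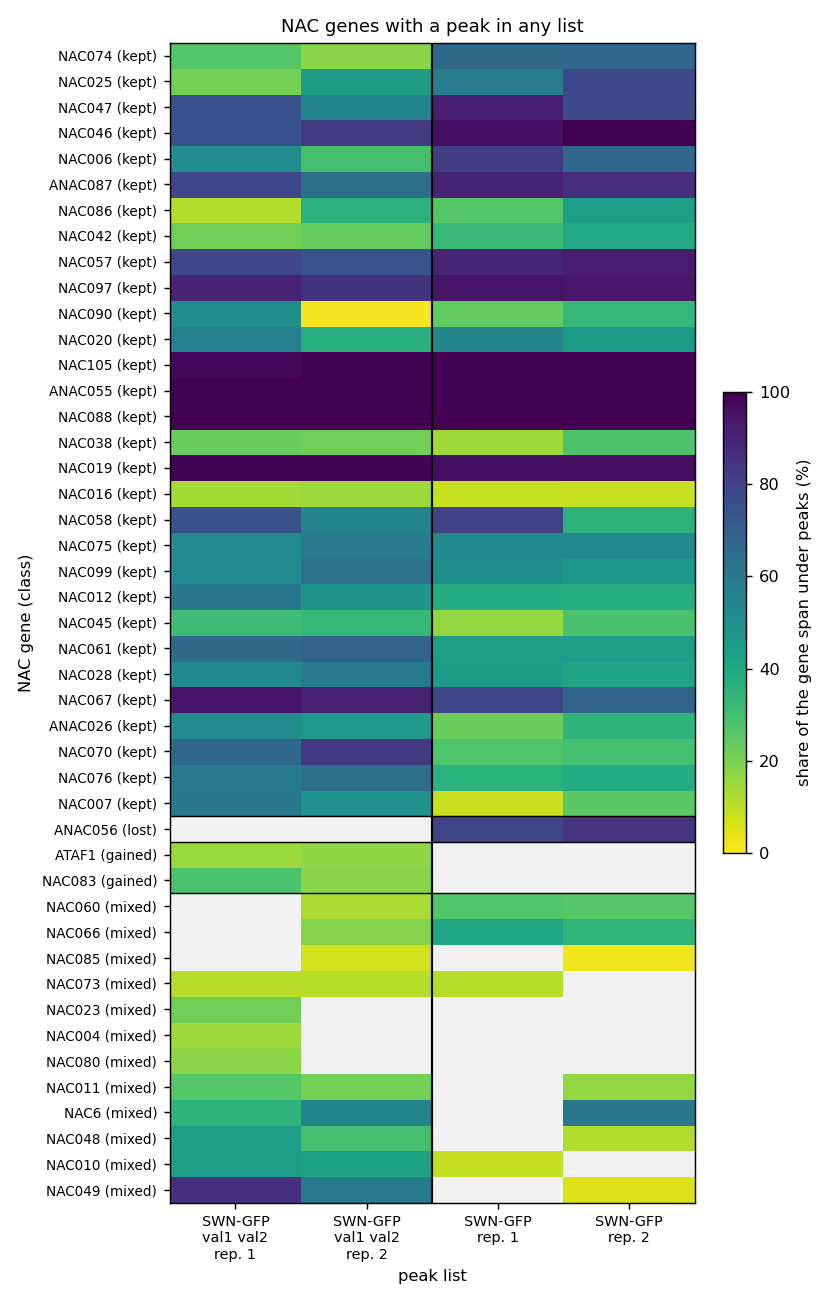
Share of each gene span under peaks, in percent, for the 45 NAC genes with a peak in any list (rows, with their class) in the 4 lists (columns, SWN-GFP val1 val2 left of the line); pale grey means no peak. Kept genes are ordered by the difference in mean covered bp, from NAC074 (-1948 bp) to NAC007 (1172.5 bp).

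NAC074 (AT4G28530), also known as KIRA1, which promotes senescence of the floral stigma, differed most among the kept genes covered less. Peaks covered 1162 and 778 bp of its span of 4414 bp in SWN-GFP val1 val2, against 2880 and 2956 bp in SWN-GFP, and the genotypes did not overlap. Each SWN-GFP list held 1 long peak, on chromosome 4 at 14087034 to 14092993 and 14087021 to 14092891, that ran across the neighbouring cruciferin gene CRU3, which encodes a seed storage protein, into NAC074. Its summit lay in NAC074, with a fold of 14.91 and 13.49 at percentiles 99.2 and 99.0. In SWN-GFP val1 val2 the strongest peaks in NAC074 had a fold of 3.25 and 3.31 at percentiles 61.2 and 66.2. CRU3 stayed covered over 2082 and 2017 bp of its 2241 bp in SWN-GFP val1 val2, by separate peaks with a fold of up to 4.24 and 4.73, against 2241 and 2241 bp in SWN-GFP. With only peaks of a fold of at least 4, NAC074 was lost. NAC074 weighed on the sum above: without it the difference was 12.92%.

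The other kept genes covered less differed by smaller lengths. NAC025, a factor of the endosperm, was covered over 356 and 772 bp in SWN-GFP val1 val2, against 976 and 1315 bp in SWN-GFP. The fold of its strongest peak was 3.15 and 2.54 in SWN-GFP val1 val2 and 3.71 and 3.19 in SWN-GFP, and NAC025 was mixed with only peaks of a −log10 q of at least 5 and had no peak in any list with only those of a fold of at least 4. ANAC087, which promotes cell death in the root cap, was covered over 1647 and 1338 bp in SWN-GFP val1 val2, against 1884 and 1804 bp in SWN-GFP. NAC046, which acts with it, was covered over 1375 and 1515 bp in SWN-GFP val1 val2, against 1763 and 1837 bp in SWN-GFP. At both genes 1 peak in each SWN-GFP list stood against ones of lower percentile in SWN-GFP val1 val2. The fold at NAC046 was 4.3 and 4.32 in SWN-GFP val1 val2 (percentiles 80.1 and 82.1), against 9.05 and 8.65 in SWN-GFP (percentiles 95.9 and 95.8). That at ANAC087 was 3.07 and 3.23 in SWN-GFP val1 val2 (percentiles 55.7 and 64.0), against 7.03 and 7.11 in SWN-GFP (percentiles 91.9 and 92.8). With only peaks of a fold of at least 4, ANAC087 was lost. NAC047, which drives upward leaf movement under flooding, was covered over 1446 and 1059 bp in SWN-GFP val1 val2, against 1769 and 1496 bp in SWN-GFP, and with 1000 bp added on either side of the span, or with only peaks of a fold of at least 4, its libraries overlapped. NAC006, for which no role is given here, was covered over 527 and 304 bp in SWN-GFP val1 val2, against 847 and 692 bp in SWN-GFP, and was lost with only peaks of a fold of at least 4. NAC042, the senescence repressor JUB1, NAC057 and NAC097 complete the 9, with mean covered lengths that differed by -37.6%, -16.0% and -6.6% between SWN-GFP val1 val2 and SWN-GFP.

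Of the 6 genes with the largest rise in covered length 3 are vessel factors. NAC007 (AT1G12260), the vessel factor VND4, was covered over 1850 and 1527 bp in SWN-GFP val1 val2, against 244 and 788 bp in SWN-GFP. Its strongest peak had a fold of 6.2 and 5.99 in SWN-GFP val1 val2 (percentiles 91.8 and 91.9) and of 3.25 and 4.35 in SWN-GFP (percentiles 54.3 and 77.5). NAC076, the vessel factor VND2, was covered over 2074 and 2229 bp in SWN-GFP val1 val2, against 1263 and 1340 bp in SWN-GFP. Covered length and the rank of the strongest peak did not go together at this gene. The strongest NAC076 peak had a fold of 5.26 and 5.06 in SWN-GFP val1 val2 (percentiles 87.7 and 87.3) and of 8.36 and 7.68 in SWN-GFP (percentiles 94.9 and 94.2). ANAC026, the vessel factor VND5, was covered over 1682 and 1506 bp in SWN-GFP val1 val2, against 728 and 1134 bp in SWN-GFP. Its strongest peak, too, ranked lower in SWN-GFP val1 val2, with a fold of 4.22 and 4.13 (percentiles 79.0 and 80.2). In SWN-GFP the fold of its strongest peak was 4.98 and 6.33 (percentiles 82.1 and 90.5). At NAC076 and ANAC026 the libraries of the genotypes overlapped with only peaks of a −log10 q of at least 5 and with only those of a fold of at least 4. NAC070, or BRN2, a factor of root cap maturation, was covered over 1226 and 1527 bp in SWN-GFP val1 val2, against 505 and 550 bp in SWN-GFP. With only peaks of a fold of at least 4, NAC070 was gained. NAC028 was covered over 1888 and 2115 bp in SWN-GFP val1 val2, against 1622 and 1497 bp in SWN-GFP, in the same order under every alternative tried. NAC099, for which no role is given here, was covered further by 17.9%. At NAC038 and NAC058 the libraries of the genotypes overlapped.

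**Figure D4:**
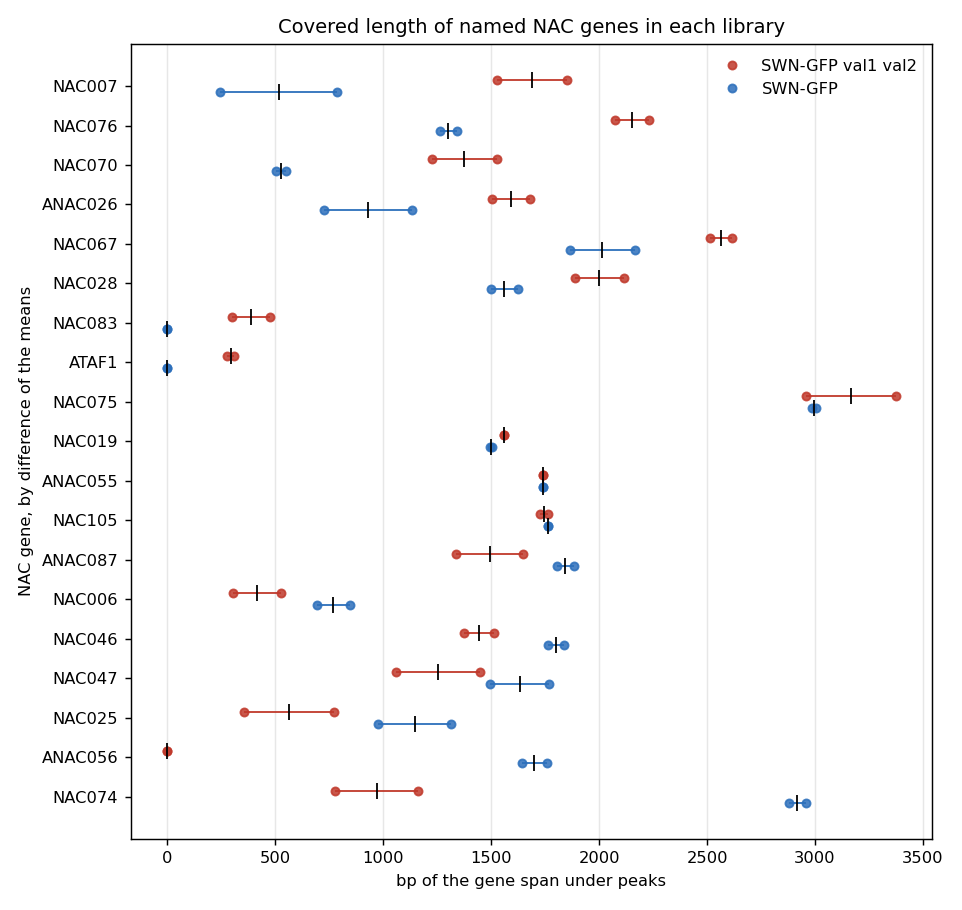
Length of the gene span under peaks, in bp, in each library (points) of SWN-GFP val1 val2 (upper, red) and SWN-GFP (lower, blue) for the 19 NAC genes named by rule, with a line from the lower to the higher library and a tick at the mean. Genes run from NAC007, covered over 1850 and 1527 bp in SWN-GFP val1 val2, against 244 and 788 bp in SWN-GFP, down to NAC074.

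NAC067 (AT4G01520) carried the peak of highest fold in either SWN-GFP list. Its fold was 26.25 and 26.1 in SWN-GFP val1 val2, rank 4 and rank 3 of those lists, against 31.69 and 29.44 in SWN-GFP, rank 1 in both. The peaks lay on chromosome 4 at 656858 to 661129 and 656920 to 661167 in SWN-GFP val1 val2, and at 657033 to 661286 and 657316 to 661156 in SWN-GFP. Their summits lay just outside the gene, 80 and 111 bp away in SWN-GFP val1 val2 and 63 and 71 bp in SWN-GFP, and the peaks touched no other protein-coding span, though they reached the pseudogene SADHU5-1. NAC067 was covered over 2616 and 2513 bp in SWN-GFP val1 val2, against 2166 and 1863 bp in SWN-GFP. Its relatives nearby on chromosome 4, NTM1 and NAC069, which encode membrane-bound NAC proteins, had no peak in any list. Other strong kept genes were NAC075, a regulator of VND7, and NAC105, the vessel factor VND3. The fold at NAC075 was 10.51 and 11.69 in SWN-GFP val1 val2 (percentiles 98.2 and 98.8) and 9.68 and 9.84 in SWN-GFP (percentiles 96.6 and 97.2). At NAC105 it was 5.51 and 4.34 in SWN-GFP val1 val2 (percentiles 88.9 and 82.2) and 9.42 and 9.99 in SWN-GFP (percentiles 96.4 and 97.3). NAC075 was covered over 2957 and 3373 bp in SWN-GFP val1 val2, against 2987 and 3003 bp in SWN-GFP, and NAC105 over 1726 and 1763 bp in SWN-GFP val1 val2, against 1763 and 1763 bp, its whole span, in SWN-GFP, so for neither were the genotypes apart in length.

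Grouped by role, the genes of secondary walls and xylem were the largest group. Of 10 such NAC genes 9 had a peak, 6 were kept, none was lost or gained and 3 were mixed. Of all protein-coding genes 29.0% had a peak in any list, and of those 43.6% were kept and 34.7% mixed. Among all genes occupied in both SWN-GFP lists 16.0% were lost, and among those in both SWN-GFP val1 val2 lists 20.2% were gained. Of the 6 kept wall and xylem genes 4 were covered more in SWN-GFP val1 val2 (NAC007, NAC012, ANAC026 and NAC076) and none less. Of all kept genes 31.2% were covered more and 27.1% less. With only peaks of a −log10 q of at least 5, ANAC026 and NAC076 overlapped between the genotypes and NAC012 was gained, and with only peaks of a fold of at least 4, NAC007 was mixed. NAC012, the fibre wall switch SND1, was covered over 1169 and 920 bp in SWN-GFP val1 val2, against 730 and 723 bp in SWN-GFP, by peaks with a fold of at most 2.94 and 3.16 in SWN-GFP val1 val2 and 2.53 and 2.49 in SWN-GFP. NAC101, the metaxylem switch VND6, was the 1 gene of this group with no peak in any list. The relatives under other symbols were kept too: NST1, a master switch of fibre walls, had its whole 2192 bp under a peak in all 4 lists, and VND7, the protoxylem switch, was covered over 1947 and 2258 bp in SWN-GFP val1 val2, against 1778 and 1743 bp in SWN-GFP. VND1 and XND1, a repressor of xylem differentiation, were kept with overlapping libraries.

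On the role list, all 3 sieve element genes, 1 of 2 root cap genes and both immunity genes were kept. Of all protein-coding genes 12.6% were kept and of all 83 NAC genes 36.1%, and these groups are small. NAC045, a factor of nuclear loss in sieve elements, was covered over 1162 and 1246 bp in SWN-GFP val1 val2, against 603 and 1067 bp in SWN-GFP, while at NAC086, its partner, and at NAC020 the libraries overlapped. Of the root cap genes of the role list NAC070 was kept and covered more, and NAC015, or BRN1, had no peak. ANAC087 and NAC046, which act in root cap cell death but were not on that list, were kept and covered less, by the lengths given above, so the root cap genes went both ways. The root cap relatives FEZ and SMB were kept, FEZ with 1010 and 1179 bp covered in SWN-GFP val1 val2 and 634 and 807 bp in SWN-GFP. Both immunity genes were kept: NAC061 was covered over 1272 and 1325 bp in SWN-GFP val1 val2, against 866 and 857 bp in SWN-GFP, and NAC090, a repressor of salicylic acid responses, over 682 and 17 bp in SWN-GFP val1 val2, against 330 and 451 bp in SWN-GFP.

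Of the 3 seed genes, 1 was occupied in each library of SWN-GFP val1 val2, where 17.9% of all protein-coding genes were. All 3 were occupied in each library of SWN-GFP, where 16.9% of all protein-coding genes were. Besides ANAC056, which was lost, and NAC025, which was covered less but not kept at either stricter threshold, NAC060, a factor of seed dormancy and sugar response, was mixed. In SWN-GFP val1 val2, NAC060 had no peak in replicate 1 and 329 bp under a peak at percentile 2.8 in replicate 2, against 698 and 681 bp in SWN-GFP. The group is small, and NAM, the relative with a seed role, was mixed with the same order. Senescence genes went both ways. NAC016 was covered over 386 and 398 bp in SWN-GFP val1 val2, against 229 and 233 bp in SWN-GFP, NAC042 was covered less and NAC083 was gained. NAP, a relative that promotes leaf senescence, was lost, with 609 and 382 bp under weak peaks in SWN-GFP. NAC6, better known as ORE1, had peaks over 532 and 836 bp in SWN-GFP val1 val2, against none and 903 bp in SWN-GFP. ANAC059, or ORS1, its closest relative, had no peak.

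**Figure D5:**
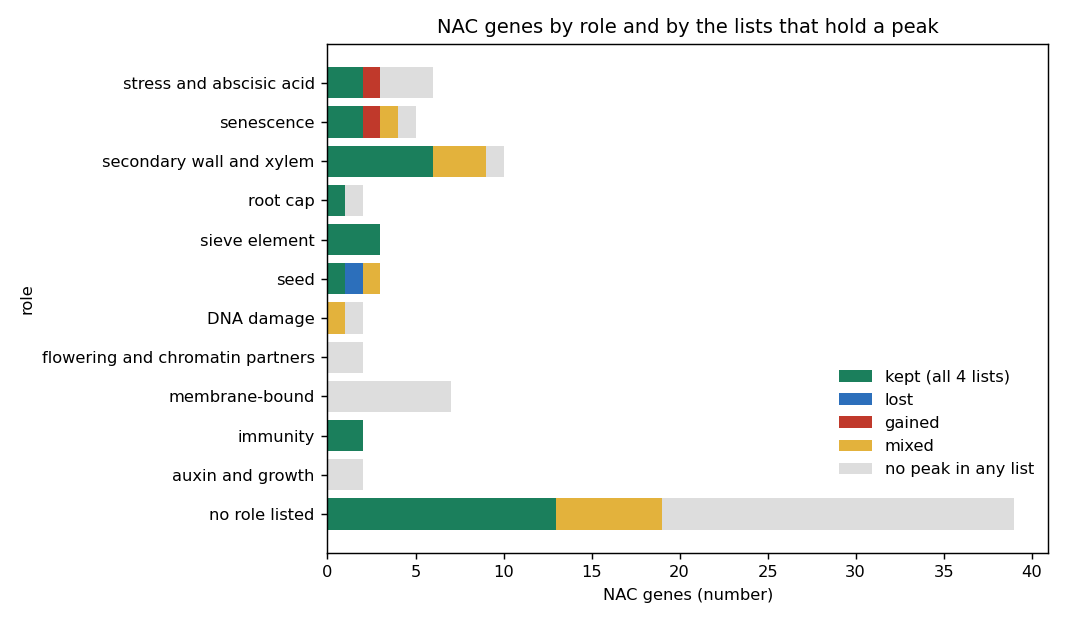
Number of NAC genes by role (rows) and by the lists that hold a peak (colours). Of 10 secondary wall and xylem genes 6 were kept and 1 had no peak, while none of the 7 genes listed as membrane-bound had a peak in any list. Of all nuclear protein-coding genes 12.6% were kept and 71.0% had no peak in any list.

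The 38 NAC genes without a peak in any list included whole groups of the role list written by hand. None of the 7 genes listed there as membrane-bound, which are released from membranes on stress, had a peak. They were NAC13 and NAC017 of mitochondrial signalling, NAC053 and ANAC078 of proteasome stress, NAC062, NAC069 and NAC089. Each gene holds 1 role on that list, so a membrane-bound NAC gene filed under another role would not be counted in this group. Of all protein-coding genes 71.0% had no peak in any list, and of all 83 NAC genes 45.8%. NTL8, a membrane-bound relative, had 397 bp under a weak peak in SWN-GFP val1 val2 replicate 2 only. No peak was found either at NAC050 and NAC052, partners of the histone demethylase JMJ14, at NAC1 of auxin response or at NAC036 of leaf growth. Among the DNA damage genes NAC044 and the relative SOG1, the central factor of that response, had none. Among the stress genes ATAF2, NAC032 and NAC102 had no peak, and the relative RD26, a drought factor, had 36 bp under a weak peak in SWN-GFP replicate 1 only. LOV1, a relative that delays flowering, was the exception among the flowering and chromatin genes and was kept. Its fold was 9.05 and 8.49 in SWN-GFP val1 val2 (percentiles 97.1 and 96.9) and 15.45 and 14.48 in SWN-GFP (percentiles 99.3 and 99.3). Of the 13 relatives of the role list under other symbols 7 were kept, 1 was lost, 3 were mixed and 2 had no peak. A further 20 genes without a peak have no role listed. NAC genes without a peak had a median span of 1878 bp and kept ones of 2020.5 bp, while over all protein-coding genes those without a peak were the longer ones (2197.5 bp against 1756 bp for kept genes).

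Few neighbouring NAC genes could have shared a peak. Of 7 pairs of NAC genes less than 5000 bp apart, only in NAC048 and NAC049 did both genes have a peak. NAC048 and NAC049 had no peak in common in any list, and in the other pairs a shared peak was not possible. NAC016 was kept while NAC017, 117 bp away, had no peak. NAC050, NAC052 and NAC053 form a row with gaps of 129 and 14 bp and had none. NAC048 and NAC049, 997 bp apart, were both mixed in the same way. NAC048 was covered over 802 and 544 bp in SWN-GFP val1 val2, against none and 215 bp in SWN-GFP, and NAC049 over 1275 and 877 bp in SWN-GFP val1 val2, against none and 79 bp in SWN-GFP. No role is given here for either gene.

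Among the 12 mixed genes more were covered further in SWN-GFP val1 val2 than less far. In 6 of them (NAC6, NAC010, NAC011, NAC048, NAC049 and NAC073) the peak was missing from 1 SWN-GFP library alone (50.0%, where 16.8% of all mixed genes had this pattern). In 2 (NAC060 and NAC066) it was missing from 1 SWN-GFP val1 val2 library alone (16.7%, where 15.6% of all mixed genes had it). In 3 (NAC004, NAC023 and NAC080) it was found in SWN-GFP val1 val2 replicate 1 alone, and NAC085 had one in a single library of each genotype. Covered length did not overlap between the genotypes in 7, of which 5 were covered more (41.7%, where 11.6% of all mixed genes were) and 2 less (16.7%, where 10.8% were). By definition a mixed gene can be covered more only if 1 SWN-GFP library alone lacks the peak, so these shares are not separate from those above. With that pattern, 5 of the 6 NAC genes were covered more, as were 319 of the 463 among all mixed genes. The SWN-GFP val1 val2 lists were also the longer ones, and the part of list length in these counts was not tested. NAC010, the wall factor SND3, was covered over 946 and 898 bp in SWN-GFP val1 val2, against 200 bp and none in SWN-GFP. NAC066, the anther wall switch NST2, had none and 264 bp under peaks in SWN-GFP val1 val2, against 593 and 494 bp in SWN-GFP. Peaks of the 3 genes found in replicate 1 alone ranked at percentiles 8.1, 13.3 and 5.2 of that list.

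Kept NAC genes held a single peak less often than all kept genes did, in each of the 4 lists. A single peak was found in 12 and 16 of the 30 kept genes in SWN-GFP val1 val2 (40.0% and 53.3%) and in 18 and 19 in SWN-GFP (60.0% and 63.3%), against 74.3% and 74.7% in SWN-GFP val1 val2 and 77.0% and 75.9% in SWN-GFP of all kept genes. The 30 genes held 55 and 46 peaks in SWN-GFP val1 val2 and 46 and 49 in SWN-GFP, so in peak number the genotypes overlapped. The median share of the span under peaks was 59.5% and 57.1% in SWN-GFP val1 val2 and 53.0% and 46.2% in SWN-GFP, against 51.4% and 54.3% in SWN-GFP val1 val2 and 50.1% and 53.3% in SWN-GFP for all kept genes. In 2 of the 30 (6.67%), ANAC055 and NAC088, the whole span was covered in all 4 lists, as in 4.73% of all kept genes. NAC088 is annotated over 444 bp only and shared its peak with the neighbouring gene SIP1;2. The summit of the strongest peak lay within the span in 25 and 25 of the kept NAC genes in SWN-GFP val1 val2 and in 24 and 27 in SWN-GFP (80.0% to 90.0%), against 89.1% to 89.9% of all kept genes.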

How the data were processed

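SWN-GFP binding was given as 4 peak lists, 1 per immunoprecipitated library, without headers. Bowtie2, SAMtools, Picard and MACS2 and the build TAIR10 are named in the submitters' processing notes, with no version or setting, and the control of each list is not known here. Read as a MACS2 table, the deposited columns hold the pileup signal at the summit, the −log10 p and −log10 q of the peak caller and the authors' fold, a ratio of pileup to local background that is not comparable between lists of unknown depth.

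Spans and names came from a RefSeq gene table of TAIR10.1 without strand or sequence, and none of its coordinates are printed. Covered length is the bp of a span under peaks. Python 3.11.15 with pandas 2.3.3 was used, and the code was tested on simulated spans. The planned search for promoter motifs was not run because no promoter sequence was used here. Genes named in the text were the lost and gained ones, the 6 kept genes of largest fall and of largest rise in covered length without overlap, the 6 kept genes of highest mean percentile, and examples from a role list written by hand with 57 genes and 11 roles. Symbols held by more than 1 gene (NAC2, NAC3) are given by ANAC number. The gene family, the role list and the comparisons were chosen with earlier results of these data known, so counts are set beside those of all 27444 nuclear protein-coding genes and no test over the family was made. The alternatives tried were 1000 bp on either side, at least 100 bp covered, a −log10 q of at least 5, a fold of at least 4, the 8000 strongest peaks of each list, and each library left out.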

Additional observations from a re-analysis of the deposited data

How the results depend on the processing

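The 30 kept, 1 lost and 2 gained NAC genes, of which 9 kept ones were covered less and 12 more, depended on the peak threshold more than on the window. With peaks of a −log10 q of at least 5, 2 genes were lost and 4 gained. With peaks of a fold of at least 4, 16 were kept, 4 were lost, and 4 kept ones were covered less and 4 more. With the 8000 strongest peaks of each list 3 were lost. The summed covered length differed by 7.29%, and by 13.55% with 1000 bp on either side, 1.11% with a −log10 q of at least 5, 1.46% with the 8000 strongest peaks and -12.51% with a fold of at least 4, where fewer peaks enter by construction. With single libraries left out, 1 to 3 genes were lost, 2 to 6 gained and 30 to 34 kept, 10 to 13 kept ones were covered less and 13 to 16 more, and the sum differed by 4.49% to 10.25%. Without SWN-GFP val1 val2 replicate 2, NAC060 and NAC066 were lost besides ANAC056 and 5 genes were gained. Without SWN-GFP replicate 1 there were 4 gained genes and without replicate 2 there were 6, as fewer lists must then lack a peak. ANAC056 was lost and ATAF1 gained in every alternative. All alternatives were run for the NAC genes only, so whether all protein-coding genes moved alike is not known here. No paired analysis was possible because these counts and lengths come from no test and the labels do not say that a replicate number is shared between the genotypes. Depth is unknown, so weak or missing peaks limit every call of a lost, gained or mixed gene.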
